A study of Mus musculus with 2 samples.

Results

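Mouse genes whose mRNAs were tagged at 2 or more sites of the 3′ UTR were examined for the site that carried their copies in each of 2 cell lines. Digital gene expression (DGE) tag profiling reads 21 bases per mRNA: the 4 bases CATG at which the enzyme *Nla*III cuts and the 17 bases that follow, ideally at the CATG nearest to the poly(A) tail. A gene was kept if 2 or more of its CATG sites lay wholly in its 3′ UTR, each matched exactly and on the sense strand by a tag of that gene alone, and each with at least 20 copies summed over both libraries. The rule kept 3012 genes, 21.5% of the 14013 to which a sense tag could be given without ambiguity, and 7949 of the 29500 3′ UTR sites listed over 10403 genes. Since the copies themselves chose the genes, their number is a description. The threshold cut through a continuum: 263 3′ UTR sites had 20 copies and 222 had 19, the second most copied site had 20 copies in 87 of the genes kept, and 69 genes stayed outside because theirs had 19.

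The libraries came from GC-1spg, a line made from type B spermatogonia of a 10-day-old mouse with the plasmid pSV3-neo, and from GC-2spd (ts), a line made from spermatocytes of a 6-week-old mouse with SV40 large T antigen. Both lines were grown in DMEM with 10% FBS, no treatment or genetic change other than the transformation is named, and no strain is named in the sources used here. The design compares the lines as models of the step from type B spermatogonia to primary spermatocytes. There was 1 library per line and no replicate, so every test below compares these 2 libraries and covers counting error only, and the line, the culture and the library cannot be told apart. The libraries held 5072149 and 4726808 copies. Of 12 germ cell markers, *Uchl1* alone was listed, with 325 copies in GC-1spg against 66 in GC-2spd (ts), and *Ddx4*, *Dazl*, *Sycp3*, *Stra8* and *Kit* were listed in neither. Among 8 Sertoli markers 6 were listed, in both directions: *Wt1* had 620 copies in GC-1spg against 0 in GC-2spd (ts), *Clu* 896 against 262, *Dhh* 24 against 0 and *Amh* 5 against 0, while *Gata4* had 29 against 138 and *Sox9* 29 against 46. Also listed were 2 of 6 Leydig markers and 9 of 10 peritubular myoid and fibroblast markers. The part of these cell-type differences in the shares below was not tested.

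Most mammalian mRNAs can be cleaved and polyadenylated at more than 1 place. When the alternative poly(A) sites lie in the same last exon, the coding sequence stays the same and only the length of the 3′ UTR changes, and with it the sites that microRNAs and RNA-binding proteins can reach. Testis is known for short 3′ UTRs, and proliferating and transformed cells for a shift toward proximal sites. A copy at the most 3′ kept site of a gene must come from an mRNA that extends past that site. A copy at a more 5′ site can come from an mRNA that ended before the next CATG, from incomplete cutting, or from an mRNA whose next CATG is absent, and a tag alone does not tell these apart. The distal share used here is the copies at the most 3′ kept site as a percentage of the copies at all kept sites of the gene. As a share within a gene in a library, it does not depend on how the libraries are scaled.

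The tags below are those that the main results rest on, from 5′ to 3′, with the *Nla*III site in capitals. *Kpnb1* and *Chchd4* are shown as genes with opposite shifts, though that of *Chchd4* depends on which sites count, as given below. *Dvl1* is shown because its distal tag was listed in GC-2spd (ts) only. For *Tagln2*, *Wdr1*, *Mbnl1* and *Mrps23* the distal tag stands beside a tag that differs from it by 1 base, also in capitals, because these pairs set the share of the gene. Coordinates come from the match to GENCODE M21 on GRCm38.
Kpnb1 proximal, chr11:97162480-97162500, minus strand: CATGagctaagtaagcactga
Kpnb1 distal, chr11:97159813-97159833, minus strand: CATGccagtctgtgaaggcat
Chchd4 proximal, chr6:91464972-91464992, minus strand: CATGggactttctgtacaatg
Chchd4 distal, chr6:91464368-91464388, minus strand: CATGttcactcagttgtgata
Dvl1 proximal, chr4:155858973-155858993, plus strand: CATGacaacacagtttgtact
Dvl1 distal, chr4:155859141-155859161, plus strand: CATGtgccactgccatcccgg
Tagln2 distal, chr1:172507310-172507330, plus strand: CATGctctggggcttgacgaa
Tagln2 distal, 1-base variant: CATGctctggggTttgacgaa
Wdr1 distal, chr5:38526990-38527010, minus strand: CATGtttttaccttttttttt
Wdr1 distal, 1-base variant: CATGtttttaccttttttttC
Mbnl1 distal, chr3:60629362-60629382, plus strand: CATGttctttccgcaggtgga
Mbnl1 distal, 1-base variant: CATGttctttccgcaggtgAa
Mrps23 distal, chr11:88211294-88211314, plus strand: CATGggcacacagctcatagg
Mrps23 distal, 1-base variant: CATGggcTcacagctcatagg

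Most of the 3012 genes used few sites: 1864 had 2 kept sites, 685 had 3, 271 had 4, and 3 genes had 10. All kept sites lay in the same exon of a transcript for 2793 genes, which is the layout of tandem 3′ UTRs. In 214 genes no annotated transcript held all kept sites, so that the sites belonged to alternative 3′ ends or last exons, as in *Tor1aip2* and *Slc35b2*. Over the genes with sites in the same exon, the most 5′ and the most 3′ kept sites lay a median of 992 bases apart (quartiles 488 and 2025), in annotated 3′ UTRs with a median length of 2109 bases. Kept sites of 77 genes lay less than 21 bases from a neighbour, and their tags overlap in sequence.

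Among the 8 genes with the most copies, some placed nearly all copies at the distal site and others nearly none. *Ldha*, which encodes lactate dehydrogenase A, had 24749 of 24784 copies at the distal site in GC-1spg against 10281 of 10299 in GC-2spd (ts). *Sparc*, a secreted matrix protein, had distal shares of 99.1% and 98.9%, and *Actb*, cytoplasmic actin, of 95.8% and 94.7%. At the other end stood *Cfl1*, the actin-severing protein cofilin 1, with 13 of 8597 copies and 28 of 11653, and the nucleolar chaperone *Npm1*, with 105 of 15164 and 73 of 7643. *Ddx5*, an RNA helicase, had 6 kept sites and placed 94.5% and 90.8% of its copies at the second of them, 270 bases after the stop codon. None of these differed by more than 3.39 points between the libraries. The difference of *Ddx5* (2.10% and 5.49%) and that of *Tpt1* (99.8% and 99.2%) passed the FDR but not the 10 points required for a call.

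Genes with many kept sites divided their copies unevenly among them. *Serbp1*, an mRNA-binding protein, had 10 kept sites over 5936 bases, and its first 2 held 43.1% and 33.7% of the copies in GC-1spg, against 52.5% and 30.7% in GC-2spd (ts). *Ywhaz*, a 14-3-3 protein, also had 10, with 67.8% and 61.5% of the copies at the seventh and 17.1% and 16.5% at the tenth. *Mtpn* and *Nfib* had 9 sites and *Qk* had 10. *Timp2*, an inhibitor of metalloproteinases, had 7 sites but placed its copies at the ends of its 3′ UTR: 2242 and 2083 copies at the first site, 86 bases after the stop codon, and 2102 and 1812 copies at the last, 2462 bases after it. Each of the 5 sites between them had at most 132 copies in a library. In *Timp2* the 2 libraries thus used the same pair of sites in nearly the same proportion, and its distal shares of 46.3% and 44.4% did not pass the test.

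Over the 2985 genes with copies at kept sites in both libraries, the median distal share was 59.7% in GC-1spg (quartiles 25.6% and 85.2%) and 61.9% in GC-2spd (ts) (quartiles 28.9% and 85.7%). The remaining 27 genes had no copy at a kept site in one of the libraries, 13 in GC-1spg against 14 in GC-2spd (ts), and have no share there. The distal site held at least 50% of the copies in both libraries in 1606 genes and less than that in both in 1049, and the majority changed sides in 330. The shares of the libraries followed each other across genes (Pearson r = 0.872 over 2985 genes, which share library and depth and are not replicates). The difference, GC-2spd (ts) minus GC-1spg, had a median of 0.366 percentage points, with quartiles at -4.67 and 6.18. The median over all 6264 genes with 2 or more listed 3′ UTR sites was 0.215. The share was higher in GC-2spd (ts) in 1573 genes and lower in 1407, and it differed by less than 10 points in 2107.

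A gene was called when a two-sided Fisher's exact test on its distal and other copies gave a false discovery rate (FDR) of at most 0.001 over the 6264 genes tested and the share differed by at least 10 points. Of the 2985 genes, 166 (5.56%) had a higher distal share in GC-2spd (ts) and 91 (3.05%) a lower one. Over all 6264 genes tested, 2.97% were called higher and 1.63% lower, or 4.6% in all. Since the genes kept have more copies than the other genes tested, and so smaller counting error, their larger share of calls is not read as a property of the genes. Without the FDR, 16.6% of them were at least 10 points higher and 12.8% at least 10 points lower, against 17% and 14% over all genes tested. Called genes with a higher distal share had a median log2 ratio of gene level of 0.37 and those with a lower share one of 0.40, beside 0.30 over the genes kept.

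**Figure D1:**
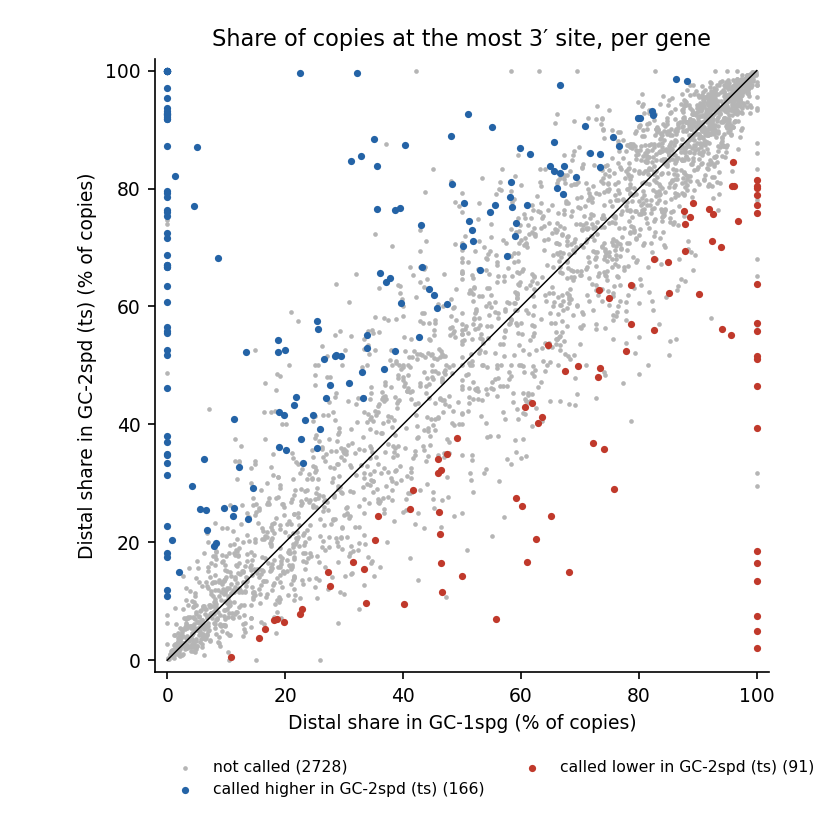
Distal share of each of the 2985 genes in GC-1spg (x axis) and in GC-2spd (ts) (y axis), in percent of the copies at its kept sites, with the line of equal shares. Blue points are the 166 genes called higher in GC-2spd (ts) and red points the 91 called lower, and columns of called genes stand at 0% and 100% of the GC-1spg axis.

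The plot of shares shows that the calls were not symmetric between the libraries. In 52 of the 166 genes called higher the distal share was 0% in GC-1spg, and in 19 of the 91 called lower it was 100% there. In GC-2spd (ts) the share was 100% in 8 of the genes called higher and at neither limit in the genes called lower. Over all kept sites, 174 were listed at 0 in GC-1spg against 73 in GC-2spd (ts), where 0 means 0 or 1 copy because the files list tags from 2 copies. Of the calls, 55 of the 166 and 28 of the 91 involved such a site.

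Part of these missing sites were not silent but carried a tag with 1 changed base. A variant tag is here a tag with no exact match that differs by 1 base from a single reference tag, has at least 10 copies, and makes up at least 50% of the copies of its site together with the exact tag. In GC-1spg 73 kept sites had such a tag and in GC-2spd (ts) 28, and the variant made up at least 90% of the copies at 55 sites in GC-1spg against at 5 in GC-2spd (ts). It was present at 47 of the 174 sites listed at 0 in GC-1spg against at 0 of the 73 in GC-2spd (ts). In all, 80 sites of 79 genes had one in either library. The source of the variant tags was not tested.

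*Tagln2*, an actin-binding protein of the transgelin family, had the largest difference in variant copies between the libraries. Its exact distal tag had 7 copies in GC-1spg against 2429 in GC-2spd (ts), and the variant (C13T, the reference base first and position 1 at the C of CATG) had 3902 and 0. With exact matching the distal share of *Tagln2* was 22.6% and 99.5%, and with 1 mismatch allowed the difference was 0.122 points. In *Wdr1*, which disassembles actin filaments together with cofilin, the exact tag had 64 and 663 copies and the variant (T21C) 1447 and 85. Its difference of 59.6 points became 1.66 when the variant was counted. The variant of *Mbnl1*, a splicing regulator, was frequent in both libraries: in GC-1spg it had 758 copies beside 2 of the exact tag, and in GC-2spd (ts) 911 beside 601 (G20A). Its difference of 82.1 points became -0.769.

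In the mitochondrial ribosomal protein gene *Mrps23* the exact distal tag had 0 and 187 copies and the variant (A8T) 347 and 0. Counting the variant reversed the call, from 56.5 points to -17.0. *Nedd4*, a ubiquitin ligase, had a variant (C18G) of 380 and 50 copies at its distal site, where the exact tag had 0 and 508, and its 67.0 points became -5.74. For *Eif2s2*, a subunit of the initiation factor that brings the initiator tRNA, the variant (C7G) had 305 and 0 copies and the exact tag 0 and 233. The same applied to calls toward a lower distal share, where the proximal site was listed at 0 in GC-1spg: in *Cop1* the variant (C14T) had 50 copies there and in *Dcaf8* (A7G) 56, and with 1 mismatch allowed *Cop1* went from -26.6 to -4.33 points and *Dcaf8* from -36.2 to -10.9, and neither was called. With 1 mismatch allowed, 151 of the genes (4.98%) were called higher and 83 (2.74%) lower, against 2.65% and 1.45% over all genes tested. Of the 166 and 91 genes called by exact matching, 139 and 77 remained called in the same direction, and 21 of the 27 and 8 of the 14 that did not had a variant tag.

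**Figure D2:**
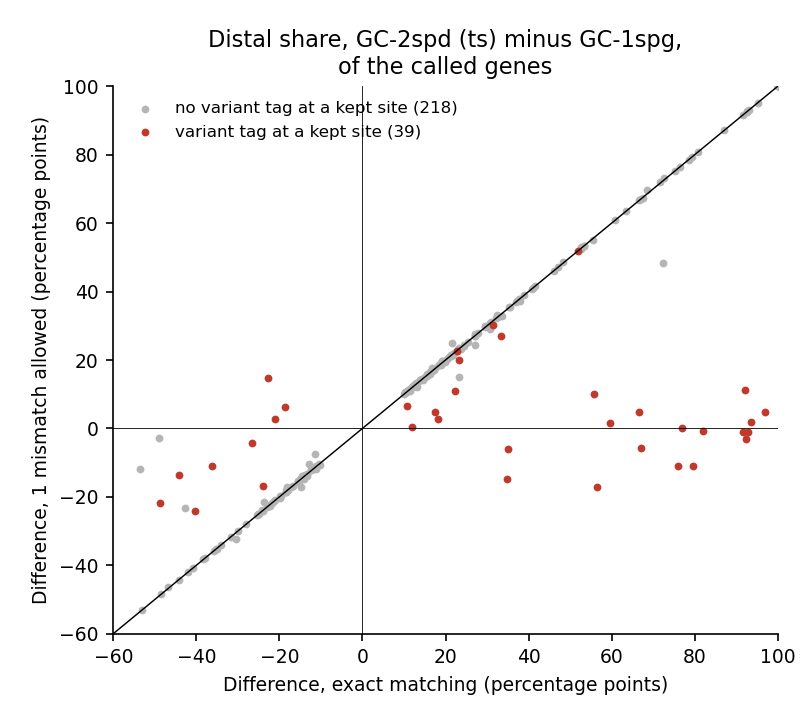
Difference in distal share, GC-2spd (ts) minus GC-1spg, in percentage points, of the 257 called genes with exact matching (x axis) and with 1 mismatch allowed (y axis), with the line of equal values. Grey points, the 218 genes without a variant tag at a kept site, lie mostly on the line, and most of the 39 red points, with a variant tag, lie off it, many of them near 0 on the y axis. The counts include genes beyond the range of the axes, which are not drawn, such as *Exosc1* at -92.5 points with exact matching.

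Other sites listed in GC-2spd (ts) only had no such variant, and these include the genes with the largest shifts by the rule for naming genes, which takes the 12 largest differences in each direction among called genes with at least 100 copies in each library. *Dvl1*, a Dishevelled protein of Wnt signalling, had 113 copies at its proximal site and 0 at its distal site in GC-1spg, and 15 and 203 in GC-2spd (ts). The distal share went from 0% to 93.1% over sites 168 bases apart. *Ints4*, a subunit of the Integrator complex, had 204 and 0 copies in GC-1spg against 40 and 153 in GC-2spd (ts), at sites 69 bases apart. *Stt3b*, a catalytic subunit of the oligosaccharyltransferase, kept its first site at 127 and 141 copies while the third went from 274 to 6 and the fourth from 0 to 285. In *Slc35b2*, a Golgi transporter of the sulfate donor PAPS, the second site had 104 and 0 copies and the third 0 and 352. *Gxylt2*, called lower with distal shares of 62.5% and 20.6% (-41.9 points), had 0 and 80 copies at the third of its 4 sites and 100 and 28 at the last.

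*Ide*, the insulin-degrading enzyme, had 0 and 234 copies at its distal site, 1860 bases after the stop codon. Its first site, 11 bases after the stop codon, had 103 and 173, so that both its proximal and its distal copies were more numerous in GC-2spd (ts). In *Dvl1*, *Ints4*, *Stt3b* and *Slc35b2* the copies of a site listed in GC-2spd (ts) only stood against copies of its 5′ neighbour in GC-1spg. A line in which the CATG itself is changed would give no tag at that site, so a lost *Nla*III site and an mRNA that ends before it cannot be told apart in these data. The converse was looked for after the values were seen: 56 tags in 52 of the genes matched the 17 bases after a place in the 3′ UTR that is 1 base away from CATG. Of these tags 12 were listed in GC-1spg only, 5 in GC-2spd (ts) only and 39 in both. *Pign*, which adds ethanolamine phosphate to GPI anchors, had 141 and 0 copies of such a tag (T1C) 3′ of both its kept sites, *Ttll12* 0 and 48 (T2A) before its last, *Tpm1*, a tropomyosin, 0 and 543 (A4G) after its last, and *Dda1*, of the CUL4 ubiquitin ligase, 242 and 140 (G2A) between its 2. The shares in the text leave these copies out unless stated. Counted with the kept sites, they turned the difference of *Dda1* from -24.2 to 12.7 points, which was not called, and raised that of *Tpm1* from 6.73 to 30.9, which was. Many of the 56 tags end in a run of A, as in *Mbnl1* (1082 and 358 copies), *Smurf2* (665 and 227) and *Syt11* (489 and 153). In these the match rests on the few bases before the run, and their origin was not tested.

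Every kept site was listed in both libraries in 2839 genes, and 111 of them were called higher and 63 lower. The 12 genes in each direction with the largest differences among those called under both ways of matching, with no site at 0 and at least 100 copies in each library, were chosen after the values were seen, and 12 and 11 of them are shown.

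**Figure D3:**
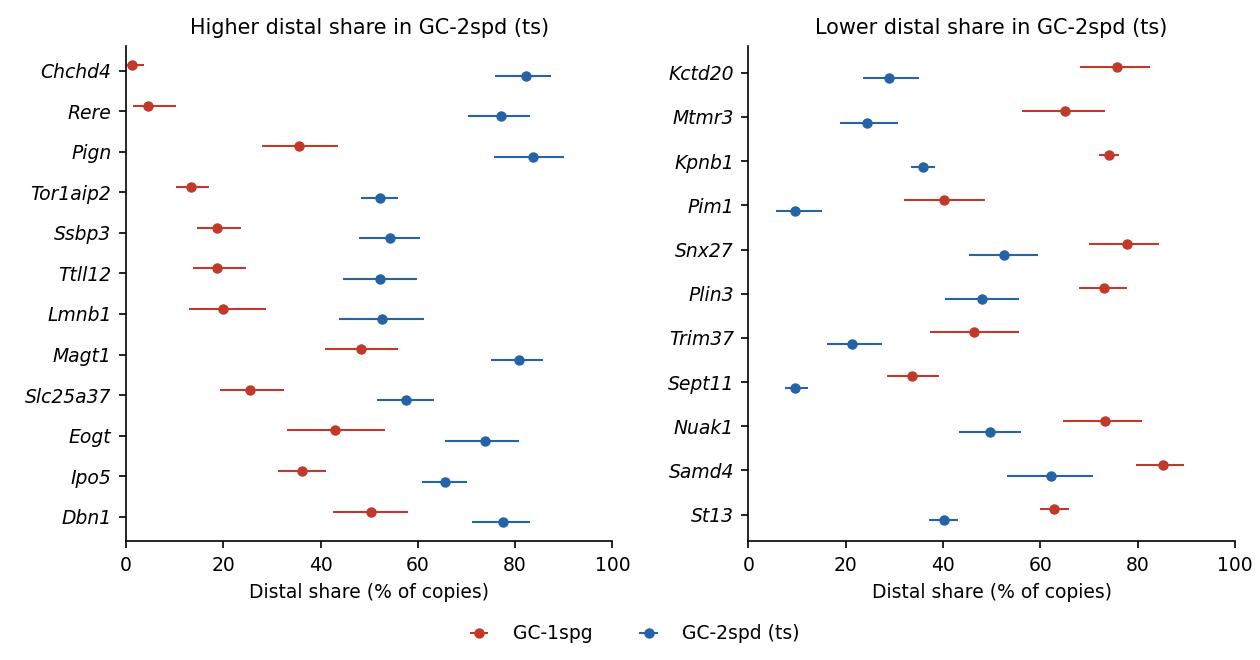
Distal share in percent of the copies at kept sites in GC-1spg (red) and GC-2spd (ts) (blue) for 23 genes called under both ways of matching and listed at every kept site in both libraries. Points are shares and bars exact 95% intervals (counting error only), and in the right panel *Kpnb1* stands at 74.1% and 35.8%.

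Among those shown with a lower distal share in GC-2spd (ts), *Kpnb1*, importin β1 of nuclear import, had the most copies. Its site 181 bases after the stop codon had 483 copies in GC-1spg against 971 in GC-2spd (ts), and its site 2848 bases after the stop codon had 1385 and 542. The distal share was 74.1% (95% interval 72.1 to 76.1) and 35.8% (33.4 to 38.3), a difference of -38.3 points at an FDR of 2.24e-109 (Fisher's exact test), while the gene level was nearly the same at 388 and 348 TPM (copies scaled to all tags of the library). *St13*, a cochaperone of Hsp70, had 359 and 632 copies at its first site and 643 and 430 at its last, with shares of 62.9% and 40.1%. *Kctd20* had 28 and 167 copies at the first of 3 sites and 113 and 73 at the last, with shares of 75.8% and 29.0%. In *Kpnb1*, *St13* and *Kctd20* the proximal copies were more numerous in GC-2spd (ts) and the distal ones less.

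*Mtmr3*, a phosphoinositide phosphatase, had distal shares of 65.1% and 24.4% over sites 1440 bases apart. *Snx27*, a sorting nexin of endosomal recycling, had similar distal copies (109 and 105) and more copies at its second site in GC-2spd (ts) (19 and 83), and so did the ubiquitin ligase *Trim37* at its proximal site, with 57 and 47 distal and 66 and 173 proximal copies. The kinase *Pim1* had 57 and 16 distal copies and 85 and 151 proximal ones. In *Plin3*, a lipid droplet protein, the proximal copies were close (86 and 92) and the distal ones were 234 and 85. In *Snx27* and *Sept11* the share at all sites but the first differed the other way (2.57 and 0.744 points). The others were *Sept11*, a septin (33.7% and 9.62%), *Nuak1*, a kinase related to AMPK (73.4% and 49.6%), and *Samd4*, an RNA-binding repressor of translation (85.2% and 62.3%).

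Among the 12 with a higher distal share in GC-2spd (ts), *Chchd4*, which folds proteins imported into the mitochondrial intermembrane space, had 225 and 33 copies at its proximal site, 23 bases after the stop codon, and 3 and 152 at its distal site 604 bases further on. Its shares of 1.32% and 82.2% rest on which sites count: with sites from 10 copies on, or with tags that also match the antisense strand of another gene, its most 3′ site was another one and the difference was -4.58 and -8.45 points. *Rere*, a transcriptional corepressor, had 106 and 41 proximal and 5 and 138 distal copies, at sites 1416 bases apart. *Tor1aip2*, a torsin cofactor of the endoplasmic reticulum, had 54 and 357 copies at its distal site beside 179 and 199 at its first. *Ssbp3*, a partner of LIM-domain complexes, had fewer copies in GC-2spd (ts) at each of its first 3 sites (70, 111 and 74 against 36, 58 and 23) and more at the fourth (59 and 139).

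*Ipo5*, like *Kpnb1* an importin, moved the opposite way: 217 and 121 copies at the third site and 135 and 275 at the fourth, with distal shares of 36.1% and 65.6%. *Ttll12*, a member of the tubulin ligase-like family, had 96 and 11 copies at its second site and 41 and 91 at the third. With the extra tag above counted, the difference of *Ttll12* was 22.2 points in place of 33.5. *Pign* had 54 of 152 copies and 93 of 111 at its distal kept site, and with its extra tag 195 of 293 and 93 of 111 at that site or further 3′, a difference of 17.2 points in place of 48.3 that was not called (FDR 0.0066). The others were *Lmnb1*, lamin B1 (22 of 110 copies and 70 of 133), *Magt1* of the oligosaccharyltransferase (48.4% and 80.8%), the mitochondrial iron importer *Slc25a37* (25.4% and 57.6%), the glycosyltransferase *Eogt* (43.0% and 73.8%) and *Dbn1*, the actin-binding protein drebrin (50.3% and 77.5%). For *Ipo5* and *Ttll12* the shift lay between their last 2 sites, and the share of copies at all sites but the first moved little in *Ipo5* (-0.400 points) and the other way in *Ttll12* (-4.22).

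**Figure D4:**
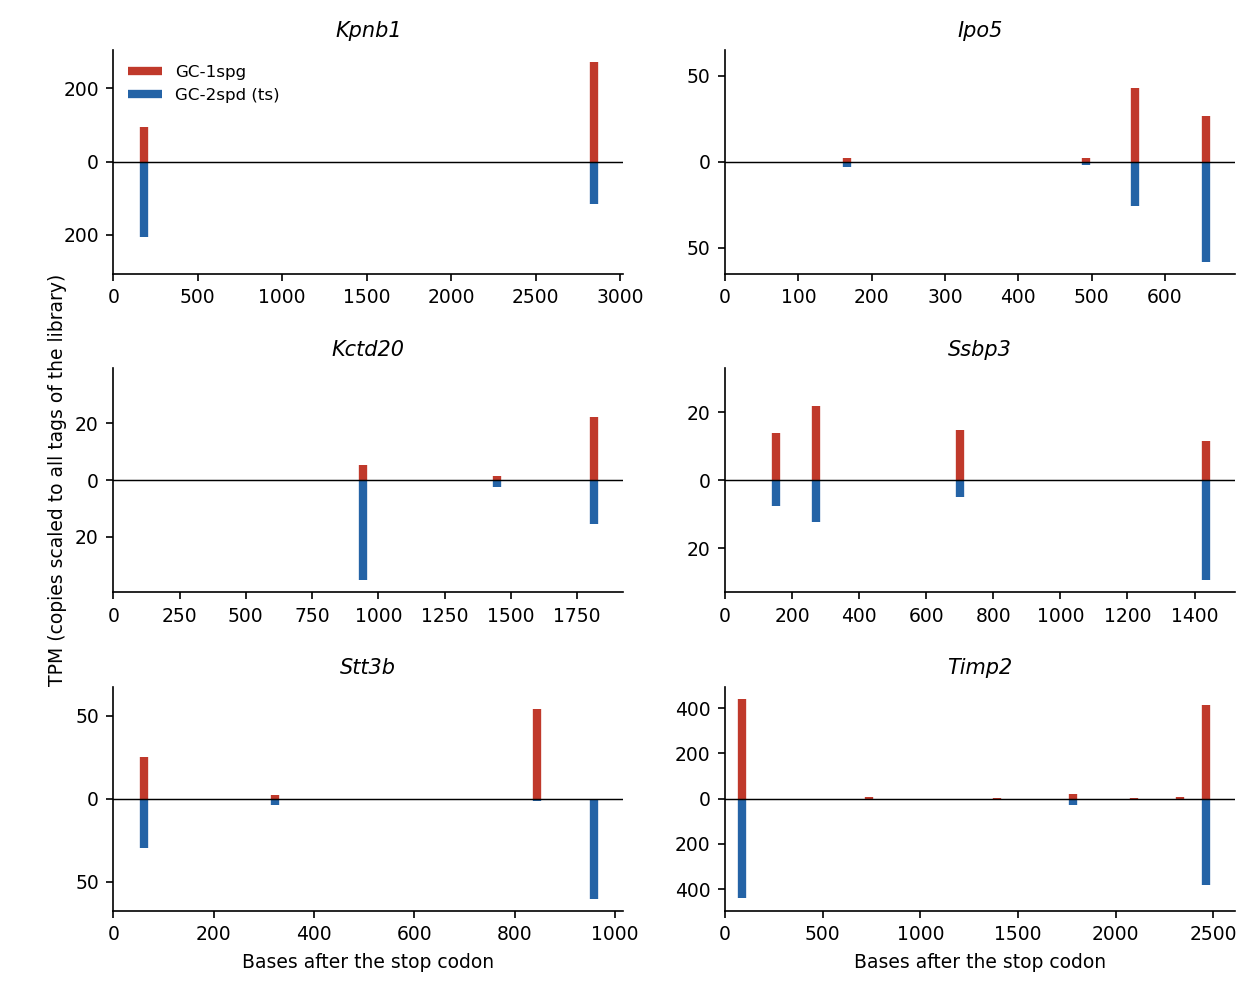
TPM at each kept site (y axis, GC-1spg upward in red, GC-2spd (ts) downward in blue) against the distance of the site from the stop codon in bases (x axis) for *Kpnb1*, *Ipo5*, *Kctd20*, *Ssbp3*, *Stt3b* and *Timp2*. The bars of *Kpnb1* exchange their heights between 181 and 2848 bases, in *Stt3b* the fourth site has a bar of GC-2spd (ts) alone, and *Timp2* mirrors itself at the first and the last site.

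The plot of copies by position shows these patterns at the scale of the 3′ UTR. In *Kpnb1* the sites that exchanged copies lay 2667 bases apart, whereas those of *Ipo5* lay 559 and 656 bases after the stop codon and those of *Stt3b* 844 and 959.

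The genes were also grouped by function, through lists of gene symbols and of the letters with which symbols begin. A list can thus hold genes of another function, and the lists can overlap. Transporters and pumps had 65 genes with shares in both libraries, of which 7 had calls toward a higher share in GC-2spd (ts) and 0 toward a lower share (10.8% in all, beside 5.56% and 3.05% of the 2985 genes in these directions), and a median difference of 3.57 points, beside 0.366 over the 2985 genes. The 7 were *Slc35b2*, *Slc25a37*, *Slc30a4*, a zinc transporter (51.0% and 92.6%), *Slc25a46* (0% and 55.8%), *Slc25a51*, a mitochondrial NAD carrier (43.1% and 66.8%), *Slc48a1*, a heme transporter (37.1% and 64.2%), and *Atp13a3*, a P-type ATPase (65.7% and 82.9%). With 1 mismatch allowed *Slc25a46* was no longer called. *Slc35b2*, *Slc30a4* and *Slc25a46* had sites listed in only one of the libraries, in *Slc30a4* the first, with 88 copies in GC-1spg alone. The 94 genes of the ubiquitin system had 1 call higher, *Psmc6* of the proteasome (33.9% and 55.2%), and 3 lower, *Trim37*, *Trim56* and *Ube2d2a*, which is 4.26% of them against 8.61% of the 2985 genes.

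Of 62 small GTPases and their partners 5 were called higher and 4 lower (14.5%, against 8.61% of the 2985 genes). *Nras*, a Ras oncogene, had shares of 20.2% and 35.6% over 6 sites, the late endosomal *Rab7* 36.7% and 49.4%, and *Arl2bp*, a binding partner of ARL2, 55.1% and 90.5%. In the other direction, *Rab1a*, of transport from the endoplasmic reticulum to the Golgi, had 46.4% and 32.2%, and *Rap1b*, of cell adhesion, 22.9% and 8.71%. The called genes *Rab8a* (higher), *Rabep1* and *Ralgapa2* (lower) each had a site listed at 0 in GC-1spg. With 1 mismatch allowed *Rab8a* was no longer called. Of 78 genes of RNA binding and translation 7 were called higher and 4 lower (14.1%), and 3 of these, *Eif2s2*, *Mbnl1* and *Rbm25*, were lost with 1 mismatch allowed. Those that stayed include the translation factors *Eif4g2* (25.4% and 36.0%), *Eif5* (73.2% and 62.7%) and *Eef1d* (16.6% and 5.37%). Calls stood in both directions in both groups.

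In the other lists 5.56% to 9.76% of the genes were called, near the 8.61% of the 2985 genes. The 27 matrix genes had 2 calls, both lower: *Lamc1*, the laminin γ1 chain, with 72.2% and 36.8%, and *Thbs1*, thrombospondin 1, with 169 of 176 copies and 1334 of 1579, which was lost with 1 mismatch allowed. Of 25 actin cytoskeleton genes *Tagln2* and *Cfl2* were called in opposite directions, and both calls were lost when their variant tags were counted. The 36 genes of the cell cycle list had 2 calls, *Cdk13* (11.3% and 40.9%) and the replicative helicase subunit *Mcm4* (431 of 575 copies and 329 of 536). *Cdk13*, a transcription elongation kinase, was on this list through its symbol, and its second site had 0 and 57 copies. The 41 phosphatases and 14-3-3 proteins had 4 calls, of which *Ptp4a2* (78.7% and 63.6%) and *Ptprs* (75.6% and 88.8%) had no site at 0. Median distal shares ran from 37.9% and 47.3% for RNA binding and translation to 84.4% and 84.2% for the actin cytoskeleton.

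Of 23 genes listed for tandem 3′ UTR forms that are often described, 20 were among the genes kept. Fisher's exact test called 0 of them at the FDR and the 10 points, against 8.61% of the 2985 genes, 8 had an unadjusted p under 0.05, and 3 differed by at least 10 points. The 3 had lower distal shares in GC-2spd (ts): *Cdk6*, a G1 kinase, with 407 of 725 copies and 52 of 137 (56.1% and 38.0%, FDR 0.00182), *Dicer1*, the microRNA-processing nuclease, with 112 of 125 and 55 of 80 (89.6% and 68.8%, FDR 0.00467), and the vesicle GTPase *Rab10*, with 146 of 195 and 112 of 186 (74.9% and 60.2%, FDR 0.0279). *Dicer1* was called with 1 mismatch allowed (-23.5 points). *Cd47* had 743 and 305 copies at the first of 5 sites and 100 and 67 at the last. The 3 sites kept for *Ccnd2*, cyclin D2, gave shares of 77.1% and 76.2%, but with tags allowed that also match the antisense strand of another gene the difference was -37.6 points and was called. Shares within 1 point of each other were found in *Cdc42*, *Elavl1*, *Igf2bp1*, *Vma21* and *Col1a1*.

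The machinery that makes mRNA 3′ ends was listed with all 45 genes of its list, and 19 of them were among the genes kept. Of these 4 were called for a higher distal share in GC-2spd (ts) and 1 for a lower one, beside 5.56% and 3.05% of the 2985 genes. *Cpsf6*, a subunit of cleavage factor I, had 33.1% and 49.0% over 7 sites (FDR 2.55e-05), *Cdk13*, a transcription elongation kinase, 11.3% and 40.9%, and *Rbbp6*, of the cleavage complex, 58.5% and 76.9% at an FDR of 0.000987. The second of the 3 sites of *Cdk13* was listed in GC-2spd (ts) only, with 57 copies and no variant tag. No annotated transcript held all kept sites of *Rbbp6*, so its share is not one of tandem 3′ UTRs. *Cstf1*, a subunit of the cleavage stimulation factor, had 80 of 289 copies and 40 of 318 (27.7% and 12.6%). The call of *Mbnl1* went with its variant tag, and that of *Rbbp6* lay at the threshold: with 1 mismatch allowed its difference was 18.6 points in place of 18.4, at an FDR of 0.00105. *Nudt21*, whose subunit of cleavage factor I sets site choice in many cells, had 4.41% and 9.05% and was not called.

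In level, the two-sided Audic-Claverie test (called at an FDR up to 0.001 with the log2 ratio at 1 or beyond, in size) called 4 of the 45 higher and 1 lower in GC-2spd (ts), beside 12.7% higher and 7.8% lower over all 14013 genes, and 17.2% and 6.27% of the 3012. Summed over their genes, CPSF had 316 and 284 TPM, CstF 158 and 188, cleavage factor I 294 and 350 and cleavage factor II 29.0 and 35.5. Single core factors could differ more than these sums, as in *Pcf11* of cleavage factor II, with 144 and 72 copies. Its log2 ratio was -0.90 and was not called, and it was -1.10 with TMM scaling. The 4 called higher were *Clp1*, also of cleavage factor II (3 and 96 copies), *Xrn2*, the nuclease that ends transcription (65 and 257), *Mbnl1* (80 and 793) and *Khdrbs1*, the RNA-binding protein Sam68 (411 and 793). *Mbnl2* was lower (666 and 289). With 1 mismatch allowed *Xrn2* had 291 and 257 copies and was not called, *Clp1* had 37 and 96 and *Mbnl1* 838 and 1712. TMM scaling lowered every log2 ratio by the same amount (-0.20), called 3 of the 45 higher and 4 lower, and put *Khdrbs1* at 0.85.

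What follows a site in the transcript was read for kept sites and for other CATG sites of the 3′ UTRs of the genes tested. The poly(A) signals AATAAA or ATTAAA, searched on the sense strand in the 200 bases after the site, were present after 41.0% of kept sites that were not the most 3′ of their gene and after 39.7% of the most 3′ ones with a window of full length. They were present after 25.6% of listed sites that were not kept and after 15.8% of the unlisted CATG sites. An annotated transcript end of the gene lay between the site and the next CATG for 16.6% of kept sites that were not the most 3′ and for 25.6% of the 516 most 3′ ones with a further CATG, against 7.19% of listed and 1.27% of unlisted sites. A run of 8 A, at which an oligo(dT) primer could anneal inside an mRNA, was present after 9.99%, 6.48%, 6.00% and 2.86%. These are shares of letters in windows and no evidence of use.

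**Figure D5:**
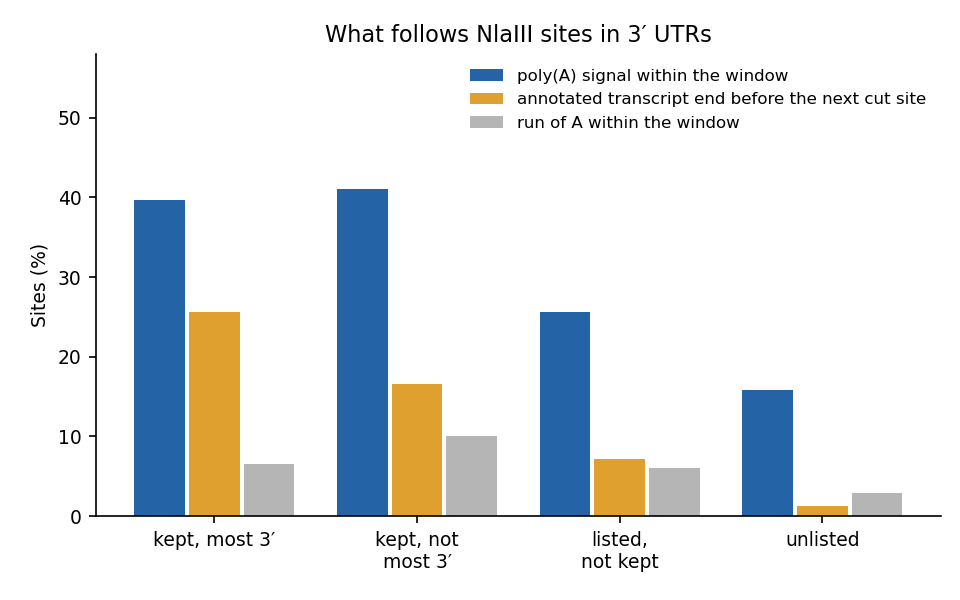
Percent of *Nla*III sites in 3′ UTRs (y axis) followed by a poly(A) signal within 200 bases (blue), by an annotated transcript end before the next CATG (yellow) or by a run of 8 A within 200 bases (grey), for 4 classes of sites (x axis). The blue bars stand at 39.7% and 41.0% for the kept classes and at 15.8% for unlisted sites. Blue and grey bars cover sites with a full window only, 1404 of 2985 for the most 3′ kept sites and 4643 of 4899 for the other kept sites.

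In 985 of the 3012 genes (32.7%) an annotated transcript end lay between 2 kept sites. Where it did, the median distal share was 45.5% in GC-1spg against 49.0% in GC-2spd (ts), and where it did not, 66.7% and 68.0%. Calls were 9.19% of the former and 8.33% of the latter. The share also went with the distance between the outer sites: it had medians of 74.3% and 77.2% in the 692 genes with sites up to 489 bases apart and of 46.1% and 47.7% in the 692 genes with sites from 2025 bases on, in both libraries alike, with 7.95% and 8.09% called. The number of kept sites per gene was not held fixed in either comparison, and a share taken over more sites can be lower for that alone. As a value on incomplete cutting, 4.18% of the sense copies of the 3012 genes in GC-1spg, and 4.42% of those in GC-2spd (ts), lay at CATG sites of the coding sequence, with medians per gene of 1.50% and 1.45%. These were close in the 2 libraries. A coding tag of an mRNA that holds the kept sites needs each of them to be missed. The values therefore do not give the rate at which a single site is missed.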

How the data were processed

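Tags were made from 1 GC-1spg library and 1 GC-2spd (ts) library, with *Nla*III, *Mme*I and PCR without molecular identifiers. The authors took out adaptors, reads of low quality and tags seen once, and deposited for each tag its count (copy number) and its TPM, copies scaled to the clean tags of the library. Counts were used here, and TPM was recomputed from them.

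Tags were matched exactly to all CATG+17 sequences of the 141767 transcripts of GENCODE M21 (GRCm38) on both strands. The UniGene set of the authors and a genome sequence were not used. Exact matches covered 4383830 copies of GC-1spg and 4196780 of GC-2spd (ts), and unambiguous sense tags 53.0% and 56.9% of all copies. A tag that also matched another gene in either sense was left out. A site counted as 3′ UTR if no transcript of its gene placed it in coding sequence or 5′ UTR. Genes with fewer than 2 sites of 20 copies entered the table of all genes tested with their 2 most copied sites.

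Distal shares were compared by two-sided Fisher's exact tests and levels by the two-sided Audic-Claverie test, with Benjamini-Hochberg adjustment and 0.01 TPM for a gene at 0. Without replicates the quasi-likelihood test of edgeR could not be fitted. Intervals are exact (Clopper-Pearson, 95%) and cover counting error only. The calling was tested on simulated data. Python 3.11.15 with numpy 2.4.6, scipy 1.17.1 and matplotlib 3.10.9, and R 4.3.3 with edgeR 4.0.16 (TMM) were used.

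The genes, lists and tests were chosen with earlier results of these data known. Named genes are, per direction, the 12 called genes with the largest difference and at least 100 copies in each library, the 8 with most copies, the 5 with most sites, and the genes on the lists of tandem 3′ UTRs and of 3′ end processing. The values of some of these genes are not reported here. All other genes named were chosen after their values were seen.

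The alternatives were a minimum of 10 or 50 copies per site, sense genes preferred over antisense ones, 1 mismatch, a stricter 3′ UTR rule, joined neighbouring sites, sites of the same exon only, all sites but the most 5′, unlisted tags at 1 copy, a log2 odds ratio of 1 or 20 points for a call, assumed SDs between cultures, and, for levels, TMM, scaling to sense tags and a minimum of 10 copies.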

Additional observations from a re-analysis of the deposited data

How the results depend on the processing

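Every value rests on 1 library per line, and Fisher's exact test takes no account of variation between cultures. With an assumed SD of 0.25 (natural log odds) between cultures, 37 genes were called higher and 14 lower in place of 166 and 91, and with 0.5, 18 and 1. Requiring at least 20 points gave 102 and 47. With no kept site at 0 and 1 mismatch allowed together, a setting added after seeing the data as was the first of these alone, 110 were called higher. The other alternatives gave 111 to 183 calls higher and 61 to 101 lower. A minimum of 50 copies left 1640 genes with a median difference of 0.852 points, and the share at all sites but the most 5′ had a median difference of 0.0546. For level, TMM scaling called 297 of the 3012 genes lower in place of 189 and 4 of the 3′ end processing genes lower in place of 1, and scaling to sense tags 3.

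Of the values of single genes under the alternatives, 585 kept direction and side of the threshold, 24 kept the direction but lost the call, 5 gained a call and 31 changed direction. The differences that changed direction, in points, with all sites but the most 5′ were *Cdc42* 0.499, *Cdc73* -3.60, *Celf1* -10.0, *Elavl1* -1.38, *Gxylt2* 8.68, *Hnrnpa2b1* 8.51, *Hnrnpc* 3.12, *Igf2bp1* -12.4, *Ipo5* -0.400, *Khdrbs1* -0.251, *Mtpn* -0.649, *Npm1* -1.65, *Sept11* 0.744, *Snx27* 2.57, *Stt3b* -0.653, *Tardbp* -0.418, *Ttll12* -4.22 and *Ywhaz* 0.0741. With a minimum of 10 copies they were *Chchd4* -4.58, *Cpsf2* -2.62 and *Ptgs2* -2.97, and with 50 copies *Hmga2* 1.73. With sense genes preferred they were *Ccnd1* 2.33 and *Chchd4* -8.45, with 1 mismatch *Mbnl1* -0.769, *Mrps23* -17.0 and *Nedd4* -5.74, with joined sites *Cdc42* 0.0257 and with the stricter 3′ UTR rule *Cdc73* -2.26. With extra cut sites counted, a setting added after seeing the data, they were *Dda1* 12.7 and *Mbnl1* -5.11, the latter through a tag that ends in a run of A. The cause was not tested, except that the share at all sites but the first is another measure in genes with 3 or more sites. Leaving out a library leaves no comparison. No paired analysis was possible because each line has 1 library. Depth limits genes with few copies: 1 copy is 0.197 TPM for GC-1spg and 0.212 TPM for GC-2spd (ts).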
